A study of Mus musculus with 12 samples.

Results

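Annexins are a family of cytosolic proteins that bind phospholipid membranes when calcium rises, and the transcripts of 9 of them were examined in CT26 cells with and without Mll3. CT26 is a colorectal adenocarcinoma line of BALB/c mice, and Mll3, now called Kmt2c, encodes a methyltransferase of histone H3 lysine 4. The series holds 12 samples, of which 6 bulk RNA-seq libraries of cultured cells are analysed here: 3 of the genotype labelled WT and 3 of that labelled Mll3KO. All 6 were grown in the same medium, with no drug in the labels, and carry 1 batch date. Whether a group's libraries are separate cultures, or whether the knock-out libraries, named sg1, sg2 and sg3, are clones, is not in the labels, so each p-value measures spread that may be technical.

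The 9 genes are Anxa1 to Anxa8 and Anxa11, of 17718 genes in the count table, and they were chosen by family name with their wild-type and knock-out values already in view. Their difference between the groups is therefore given as a description, with no test. The table holds 11 annexins in all, and the other two are Anxa9 and Anxa10. Of the 9, 8 passed the filter on low counts, which kept 13013 genes. Anxa6 did not pass. Levels are in CPM, counts scaled to library size and then between libraries by the TMM method, and differences are log2 fold changes of knock-out over wild-type, each with a standard error (SE) from a model fitted across all genes.

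Kmt2c, the targeted gene, had 24.9, 26.2 and 25.02 CPM in the wild-type libraries and 15.96, 11.2 and 14.8 in sg1, sg2 and sg3. It fell by 0.87 on the log2 scale (SE 0.129, edgeR adjusted p = 4.33e-08), and its transcript was still counted in every knock-out library. Library totals ran from 9559658 to 13406013 counts, and 1 count was worth 0.0786 to 0.108 CPM. The groups differed broadly: 66.2% of all tested genes passed an adjusted p of 0.05, 33.1% higher and 33.2% lower in the knock-out. The lowest and highest libraries of the groups did not overlap for 68.7% of tested genes, 34.4% higher and 34.3% lower.

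Annexins share a core of repeats that bind calcium and, through it, acidic phospholipids such as phosphatidylserine, and they differ in the N-terminal region that binds partner proteins. They gather at the plasma membrane, endosomes and vesicles, where they take part in membrane repair, vesicle traffic and the organisation of actin at membranes. Annexin A1 is known as a protein induced by glucocorticoids that limits inflammation, annexin A2 for its complex with S100a10, which binds plasminogen, and annexin A5 as a ligand of exposed phosphatidylserine on dying cells.

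Of the 8 tested annexins, 6 were higher in the knock-out libraries and 2 were lower. All 8 had groups that did not overlap, as was so for 68.7% of all tested genes. Because the members were chosen with this contrast in view, nothing is read from that count. Their median log2 fold change was 0.54, a 1.46-fold difference, while that of all 13013 genes was 0.02. The plot of CPM by library shows each member on its own axis.

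**Figure D1:**
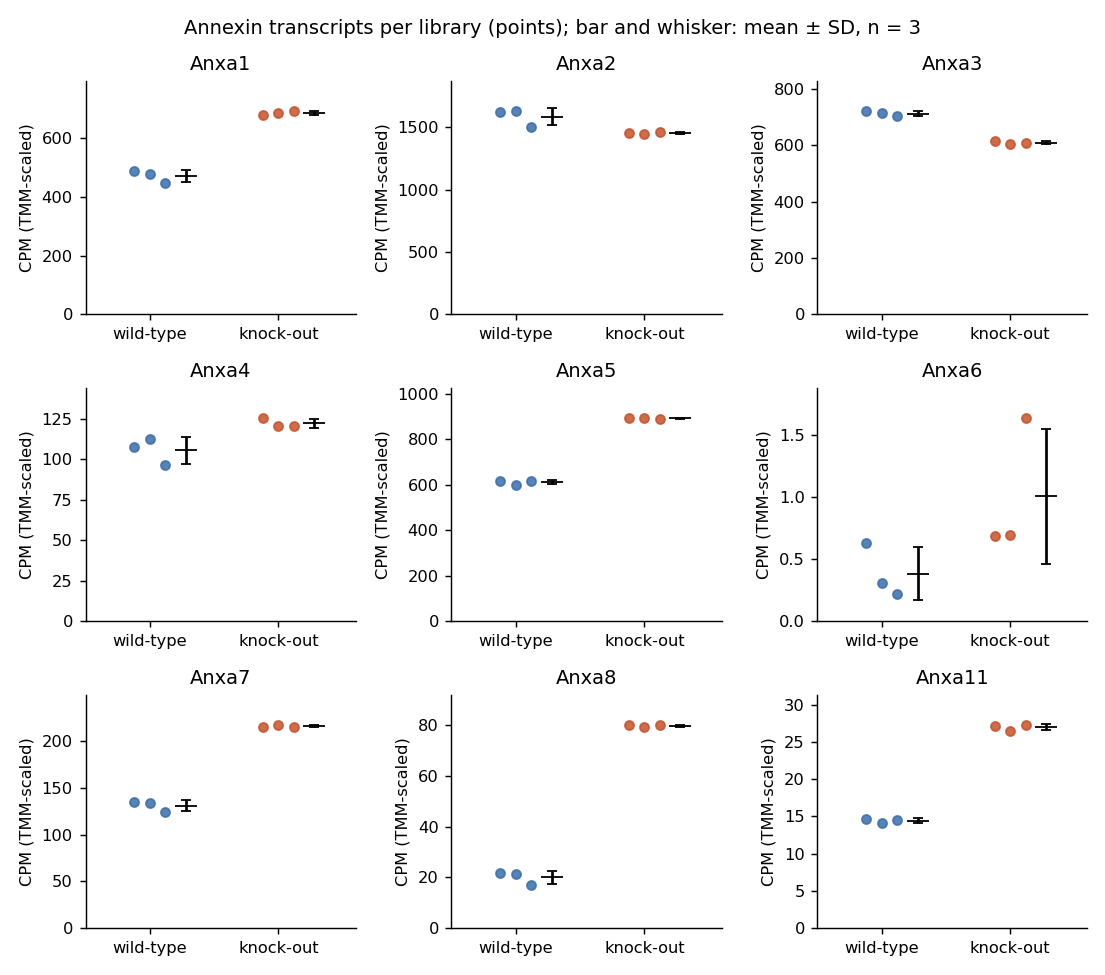
TMM-scaled CPM (vertical axis, from 0, a separate scale per panel) of each of the 9 annexins in 3 wild-type and 3 knock-out libraries. Points are libraries, bars and whiskers are mean ± SD, and Anxa8 stands at 17.1 to 21.5 CPM in wild-type and 79.4 to 80.1 CPM in knock-out cells.

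The promoters of 3 members are shown because their genes differed between the groups in unlike ways: Anxa8 had the largest difference of the family, Anxa1 was higher, and Anxa2, the member with the most counts, was lower. RefSeq on GRCm38.p6 gave windows for 7 of the 9 genes, 9 windows in all, each running from 250 bases before the transcription start to 50 bases after it. Capitals mark matches to 6 motifs searched on both strands. TGANTCA is the motif of AP-1, TATAAA of the core promoter, GGGCGG of the GC box, GGAATG of TEAD factors, AGAACA of a glucocorticoid receptor site in part and CCAAT of the box of that name. The windows lie at chr14:34085729-34086028 (plus strand) for Anxa8, chr19:20390622-20390921 (minus strand) for Anxa1 and chr9:69453433-69453732 (plus strand) for Anxa2, each read 5′ to 3′ in the direction of the gene.
Anxa8: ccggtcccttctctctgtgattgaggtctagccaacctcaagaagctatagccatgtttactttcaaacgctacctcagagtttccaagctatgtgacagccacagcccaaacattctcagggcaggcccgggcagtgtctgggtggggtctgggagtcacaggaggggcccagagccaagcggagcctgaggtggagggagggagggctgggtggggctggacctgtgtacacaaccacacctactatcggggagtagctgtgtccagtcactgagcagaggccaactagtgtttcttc
Anxa1: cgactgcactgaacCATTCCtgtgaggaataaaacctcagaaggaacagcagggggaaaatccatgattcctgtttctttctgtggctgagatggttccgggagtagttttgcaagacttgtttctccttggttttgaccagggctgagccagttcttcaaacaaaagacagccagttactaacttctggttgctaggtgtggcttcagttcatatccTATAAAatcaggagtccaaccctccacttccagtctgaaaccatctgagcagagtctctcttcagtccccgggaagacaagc
Anxa2: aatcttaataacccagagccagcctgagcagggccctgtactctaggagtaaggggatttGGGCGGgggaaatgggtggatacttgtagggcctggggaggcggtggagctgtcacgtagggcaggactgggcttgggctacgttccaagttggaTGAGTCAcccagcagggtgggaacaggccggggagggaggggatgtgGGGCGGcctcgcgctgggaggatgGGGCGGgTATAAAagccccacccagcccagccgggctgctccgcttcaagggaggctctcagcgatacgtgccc

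The Anxa8 window holds none of the 6 motifs. Its GC content is 57.3%, with 5 CpG dinucleotides, where the median of all 32851 windows is 52.7% and 7. The Anxa1 window has a GC content of 47.3% and 3 CpG. Counted from the start site, it holds TATAAA at -32 and, on the opposite strand, the TEAD letters at -236. The Anxa2 window is richer in GC, at 63.7% with 13 CpG. It holds the AP-1 letters at -95, TATAAA at -17 and 3 GC boxes at -190, -48 and -24.

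Among the 9 windows of listed annexins, the AP-1 letters were in 1, TATAAA in 2, the GC box in 5, the TEAD letters in 1, AGAACA in 1 and CCAAT in 0. Over all 32851 windows the shares were 7.81%, 13.6%, 35.7%, 14.7%, 19.0% and 37.4% in the same order. The 5 windows with a GC box are those of Anxa2 and Anxa11, 1 of Anxa4 and 2 of Anxa7. The 2 windows of Anxa7 overlap, so 1 of their GC boxes is counted in both. The member that was higher by 1.87-fold, Anxa11, has 3 GC boxes on the opposite strand (-53, -34 and -15), and the Anxa5 window, like that of Anxa8, has none of the motifs. A match of letters describes the window and does not show binding.

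Anxa8 encodes an annexin known from epithelia and from late endosomes. The gene (ENSMUSG00000021950) spans 34085979 to 34100571 on chromosome 14 of GRCm38.p6, the assembly of mm10. Its level was 21.5, 21.1 and 17.1 CPM in wild-type libraries 1 to 3, a mean of 19.9 ± 2.42 (SD, n = 3). In sg1, sg2 and sg3 it was 80.0, 79.4 and 80.1 CPM, a mean of 79.8 ± 0.394 (SD, n = 3). The lowest knock-out library stood well above the highest wild-type library. The log2 fold change was 1.99 (SE 0.0854), a 3.98-fold difference, and 97.1% of all tested genes had a lower log2 fold change. A630023A22Rik, whose span overlaps Anxa8, had 5 and 17 summed counts.

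Anxa1 encodes the annexin through which glucocorticoids are known to restrain phospholipase A2 and leukocyte recruitment. The gene (ENSMUSG00000024659) lies on chromosome 19, 20373434 to 20390671. The wild-type libraries held 488, 478 and 449 CPM, a mean of 472 ± 20.3 (SD, n = 3). The knock-out libraries held 679, 688 and 692 CPM, a mean of 687 ± 6.60 (SD, n = 3). All knock-out libraries were above all wild-type ones, by 1.45-fold on average, with a log2 fold change of 0.54 (SE 0.0360).

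Anxa5 encodes the annexin whose binding to phosphatidylserine is used to stain apoptotic cells. The gene (ENSMUSG00000027712) lies on chromosome 3, 36448923 to 36475887. The wild type held 619, 601 and 616 CPM of it, and sg1, sg2 and sg3 held 893, 893 and 892. The groups were apart, at 612 ± 9.62 against 892 ± 0.689 CPM (SD, n = 3 each). The log2 fold change was 0.54 (SE 0.0334), the same to 2 decimals as for Anxa1, and the difference was 1.46-fold.

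Anxa7 and Anxa11 encode the annexins with long N-terminal regions, rich in glycine, proline and tyrosine, that bind the calcium sensors sorcin and ALG-2. Anxa7 (ENSMUSG00000021814; chromosome 14, 20455261 to 20480133) had 135, 133 and 124 CPM in wild-type and 216, 217 and 215 CPM in knock-out libraries. Its means were 131 ± 5.71 and 216 ± 1.17 (SD, n = 3 each), a log2 fold change of 0.72 (SE 0.0466) or 1.65-fold. The knock-out libraries were all above the wild-type ones.

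Anxa11 (ENSMUSG00000021866; chromosome 14, 25842127 to 25886804) was low, at 14.7, 14.1 and 14.6 CPM in wild-type and 27.1, 26.6 and 27.3 CPM in knock-out libraries. The groups did not overlap, and the log2 fold change was 0.90 (SE 0.119), or 1.87-fold. An antisense gene of Anxa11, Anxa11os, was higher as well, at 6.68 ± 1.34 against 13.4 ± 2.60 CPM (SD, n = 3 each; log2 fold change 1.02, SE 0.181). Whether counting used strand is not given in the sources used here, so reads of the pair may not have been kept apart and the value of Anxa11 is uncertain.

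Anxa4 encodes an annexin of epithelial membranes. The gene (ENSMUSG00000029994) lies on chromosome 6, 86736840 to 86793634. Its levels were 108, 112 and 96.3 CPM in wild-type and 125, 121 and 120 CPM in knock-out libraries. The groups came close but did not overlap, and the log2 fold change was 0.21 (SE 0.0557), or 1.16-fold. Without wild-type replicate 3, the lowest library, it was 0.14.

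Anxa3 was one of the 2 members that were lower. The gene (ENSMUSG00000029484) lies on chromosome 5, 96793385 to 96845968. It had 721, 714 and 704 CPM in wild-type and 617, 607 and 608 CPM in knock-out libraries. Every knock-out library was below every wild-type one, at 610 ± 5.45 against 713 ± 8.73 CPM (SD, n = 3 each). The log2 fold change was -0.22 (SE 0.0339), 1.17-fold lower. It was -0.07 after upper-quartile scaling and -0.10 when library size alone was used.

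Anxa2 had the highest CPM of the 9. The gene (ENSMUSG00000032231) lies on chromosome 9, 69453683 to 69491792. Its libraries stood at 1623.5, 1626 and 1503 CPM in the wild type and 1456, 1446 and 1462 CPM in the knock-out. The groups did not overlap, although wild-type replicate 3 came close to the knock-out libraries. The log2 fold change was -0.12 (SE 0.0320), 1.09-fold lower, and its direction depended on scaling: upper-quartile scaling gave 0.03, and library size alone gave -0.0017. Those scalings move the median of all tested genes from 0.02 to 0.17 and 0.14. A change of scaling shifts all genes by nearly the same amount, so Anxa2 stays below that median by construction. Its place below the median under each of the 3 is therefore no further evidence of a fall.

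**Figure D2:**
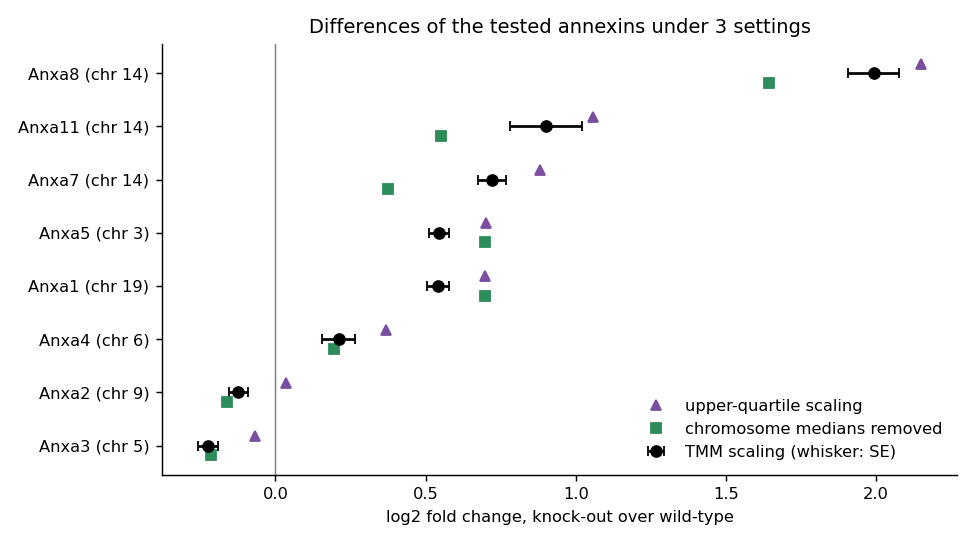
Log2 fold change of knock-out over wild-type (horizontal axis) of the 8 tested annexins, with black points and SE whiskers for TMM scaling and coloured marks for 2 alternatives. Anxa8 is at 1.99, and Anxa2, at -0.12, is the point that crosses 0 under upper-quartile scaling.

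Anxa6 encodes an annexin with a longer core than the others, known from endosomes and cholesterol traffic. The gene (ENSMUSG00000018340; chromosome 11, 54978953 to 55033471) was near the limit of detection, with 8, 3 and 2 counts in wild-type and 7, 8 and 17 counts in knock-out libraries. Scaled to CPM these were 0.629, 0.306 and 0.216 against 0.685, 0.692 and 1.63, which do not overlap, although the raw counts, from libraries of unlike depth, do. Summed, the 13 and 32 counts give a ratio of 2.43, with an exact binomial 95% interval from 1.24 to 5.05 that covers counting error only.

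The 2 annexins outside the 9 were low. Anxa9, which lies in the same stretch as Mindy1 and Cers2, had 9.11, 8.67 and 12.8 CPM in wild-type and 9.50, 9.77 and 7.69 CPM in knock-out libraries (log2 fold change -0.17, SE 0.179, edgeR adjusted p = 0.404). Anxa10 had 3 summed wild-type and 21 summed knock-out counts, a ratio of 6.91 with an exact binomial 95% interval from 2.06 to 36.2.

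The summed CPM of the 9 annexins was 3731, 3700.2 and 3524 in wild-type and 4094, 4078 and 4098 in knock-out libraries, a ratio of 1.12. Without Anxa2 the sums were 2067 ± 43.7 and 2635 ± 2.34 CPM (SD, n = 3 each), a ratio of 1.27. The make-up of the family shifted accordingly. Anxa2 took 43.4 ± 0.657% of annexin counts in the wild type and 35.6 ± 0.114% in the knock-out, and Anxa3 went from 19.5 ± 0.378% to 14.9 ± 0.122%. Anxa5 went from 16.8 ± 0.636% to 21.8 ± 0.0709%, and Anxa1 from 12.9 ± 0.172% to 16.8 ± 0.168%. Anxa5 was thus behind Anxa3 in every wild-type library and ahead of it in every knock-out library. Anxa8 held 0.545% of the wild-type and 1.95% of the knock-out sum. These shares follow counts, which depend on transcript length as well as on the number of molecules.

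**Figure D3:**
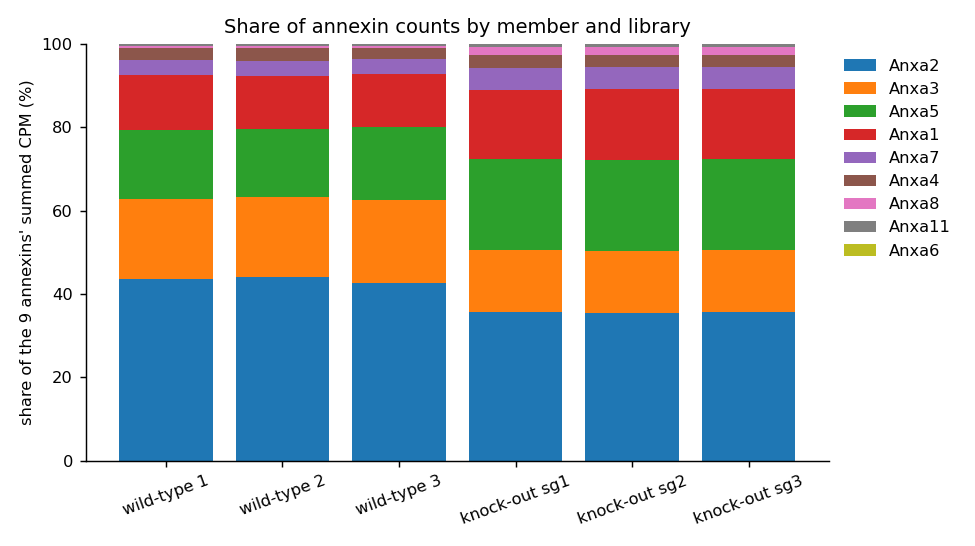
Share of each annexin in the summed CPM of the 9 (vertical axis, 0 to 100%) in the 3 wild-type and 3 knock-out libraries. The Anxa2 band narrows from 43.4% to 35.6% on average, while those of Anxa5 and Anxa1 widen to 21.8% and 16.8%.

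Of the higher annexins, 3, Anxa7, Anxa8 and Anxa11, lie on chromosome 14, where the median log2 fold change of tested genes was 0.35. With the median of each chromosome removed, Anxa7 was at 0.37, Anxa11 at 0.55 and Anxa8 at 1.65. Genes around each annexin were then compared within 5 Mb on either side. Of the 42 tested genes around Anxa7, with a median of 0.47, 33.3% had a higher log2 fold change than Anxa7. Of the 30 around Anxa11 (median 0.39) the share was 10.0%. Of the 45 around Anxa8 (median 0.34) it was 6.67%.

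Near Anxa8, 3 genes stood above it, all of them low. All 3 passed the filter only through the knock-out libraries, so they could enter the comparison only as rises. The share of 6.67% above Anxa8 rests on them alone, and no p is given for them. Sncg, the gene of gamma-synuclein, had 0.240 ± 0.259 CPM in the wild type and 1.83 ± 0.738 in the knock-out (SD, n = 3 each), 279 kb away. Ldb3, a gene of muscle Z-discs, had 0.245 ± 0.336 and 1.82 ± 0.598 CPM, 465 kb away. Npy4r, a peptide receptor gene and the nearest tested gene on one side at 56 kb, had 2 and 48 summed counts, a ratio of 23.7 with an exact binomial 95% interval from 6.21 to 201. On the other side the nearest was Mapk8, the gene of the kinase JNK1, which fell by 0.23 (SE 0.0904, edgeR adjusted p = 0.0234).

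On chromosome 19 (median -0.16), Anxa1 stood above a neighbourhood that leaned the other way, with a median of -0.21 over 30 genes and 16.7% of them above it. The nearest tested genes beyond it were Aldh1a1 and Aldh1a7, of the cytosolic aldehyde dehydrogenases, 186 and 328 kb away. Aldh1a1 had 28 summed wild-type and 354 knock-out counts, a log2 fold change of 3.63 (SE 0.277). Aldh1a7 had 9 and 158 counts, a log2 fold change of 4.07 (SE 0.450). With wild-type means of 0.866 and 0.281 CPM, both passed the filter only through the knock-out libraries, so no p is given for them. The pair are close copies, so reads may have been split between them. The next gene, Zfand5, at 897 kb, was at -0.11 (SE 0.0649, edgeR adjusted p = 0.135).

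Around Anxa5 on chromosome 3 the median of 40 genes was 0.25, above that chromosome's -0.15, and 17.5% of them stood above Anxa5. Its neighbours Exosc9 and Ccna2, the gene of cyclin A2, rose by 0.34 (SE 0.0471, edgeR adjusted p = 5.84e-09) and 0.40 (SE 0.0402, edgeR adjusted p = 3.96e-13). Around Anxa3 the median of 40 genes was -0.27 and 50.0% stood above it. Around Anxa2 the median of 56 genes was 0.0084 and 62.5% stood above it, and around Anxa4 the median of 101 genes was 0.15 and 45.5% stood above it. The plot of differences against distance shows these windows.

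**Figure D4:**
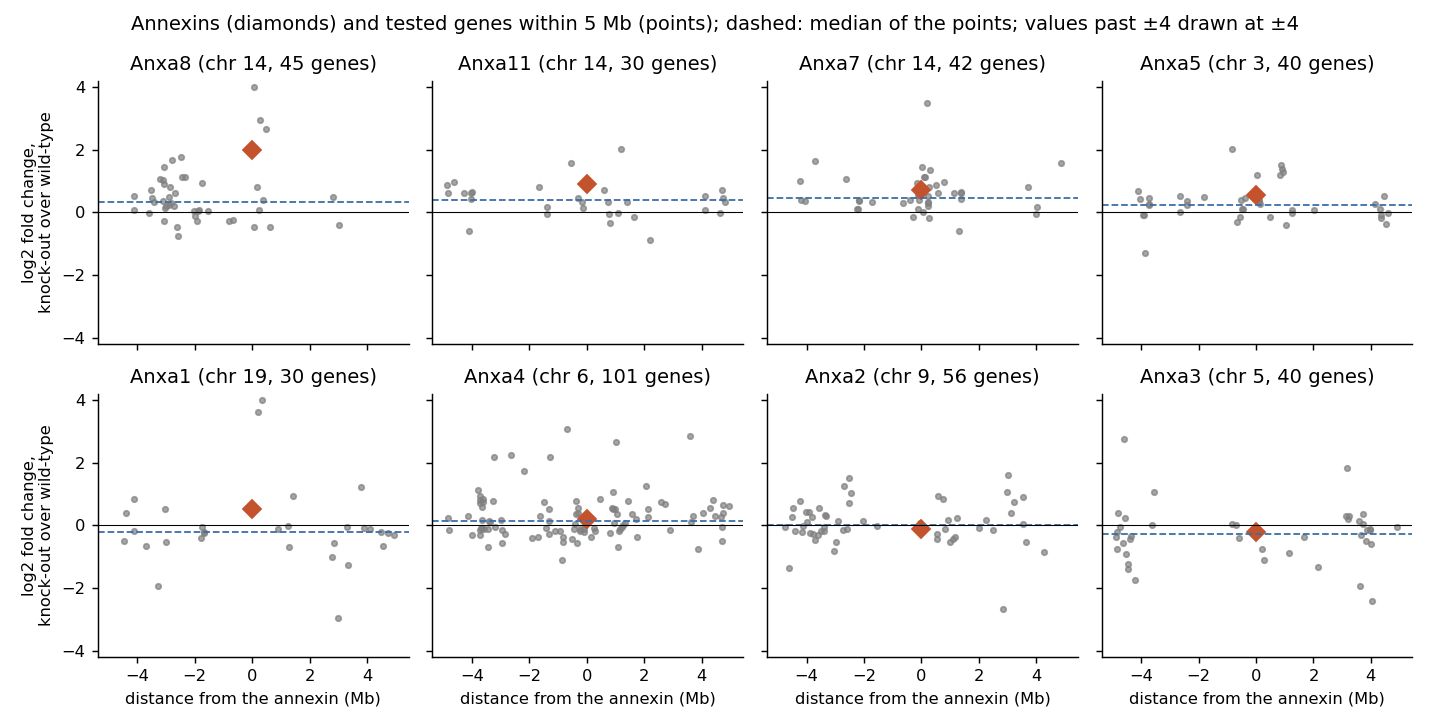
Log2 fold change (vertical axis) of tested genes against their distance in Mb from each tested annexin (horizontal axis), with the annexin as a diamond and the median of its neighbours dashed. Anxa8 is far above a median of 0.34, while Anxa3, at -0.22, lies close to its neighbours' -0.27.

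The other genes of the annexins' pathways were taken from lists grouped by role and tested across all genes. Of 111 genes listed, 78 were tested and 70.5% of those passed, close to the 66.2% of all tested genes. Of the 78, 27 rose and 28 fell, where 33.1% of all tested genes were called higher and 33.2% lower. The counts per list below are to be read beside those shares and were not tested against them. Upper-quartile scaling gave 37 rises and 22 falls, and library size alone 34 and 23.

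**Figure D5:**
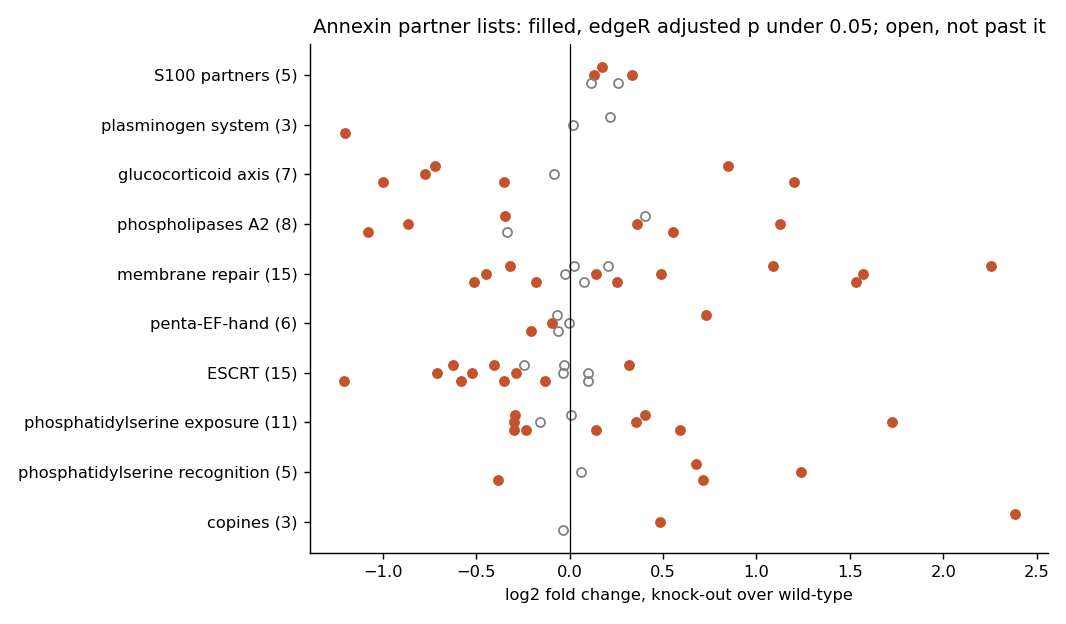
Log2 fold change of knock-out over wild-type (horizontal axis) of the 78 tested partner genes, one row per list with its number of tested genes, filled where the edgeR adjusted p was under 0.05 and open where it was not. Points lie on both sides of 0 in most rows, and the ESCRT row lies mainly to the left, with a median of -0.29.

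Annexins A1, A2, A6 and A11 pair with small S100 proteins, which bind calcium and link annexins on facing membranes. Of 5 tested S100 partners 3 rose and none fell. S100a11, a partner of Anxa1, went from 474 ± 38.0 to 597 ± 18.6 CPM (SD, n = 3 each; log2 fold change 0.33, SE 0.0408, edgeR adjusted p = 1.51e-09). S100a10, the partner of Anxa2, went from 310 ± 5.26 to 339.5 ± 2.85 CPM (0.13, SE 0.0387, edgeR adjusted p = 2.34e-03), while Anxa2 was lower under this scaling. S100a6 rose by 0.17 (edgeR adjusted p = 4.70e-05).

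Of the plasminogen system, on which the complex of Anxa2 and S100a10 acts at the cell surface, 1 of 3 tested genes fell and none rose. Plaur, the receptor of urokinase, fell from 237 ± 12.01 to 103 ± 6.84 CPM (SD, n = 3 each), by 1.20 on the log2 scale (SE 0.0503, edgeR adjusted p = 9.84e-29). The tissue activator Plat (0.22, edgeR adjusted p = 0.125) and the receptor Plgrkt (0.02, edgeR adjusted p = 0.898) did not pass. Plat passed as a rise of 0.37 after upper-quartile scaling, 0.34 by library size alone and 0.57 when chromosome medians were removed.

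The glucocorticoid axis, known to induce Anxa1, changed in both directions: 2 of 7 tested genes rose and 4 fell. Sgk1 rose by 1.20 (SE 0.0825, edgeR adjusted p = 3.83e-18) and Fkbp5 by 0.85 (SE 0.0636, edgeR adjusted p = 1.05e-17). Klf9 fell by 1.00 (SE 0.0824, edgeR adjusted p = 4.69e-16), and Tsc22d3, which encodes GILZ, fell by 0.77 (SE 0.0947, edgeR adjusted p = 2.81e-10). The receptor Nr3c1 went from 195 ± 7.49 to 153 ± 7.90 CPM (SD, n = 3 each), a fall of 0.35 (edgeR adjusted p = 4.32e-09) that was lost with the median of its chromosome removed (-0.03, edgeR adjusted p = 0.557). The formyl peptide receptors that bind annexin A1, Fpr1 to Fpr3, have no row in the counts used here and were not tested.

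Anxa1 is known to restrain phospholipase A2, but which of the listed enzymes it acts on was not examined. In the list of phospholipases A2, 3 of 8 tested genes were higher and 3 lower. The lower ones include Plaa (-0.34, edgeR adjusted p = 3.30e-07), which encodes a phospholipase A2-activating protein and not such an enzyme. Pla2g4a, the cytosolic enzyme that releases arachidonic acid, fell from 218 ± 10.5 to 120 ± 4.22 CPM (SD, n = 3 each), by 0.86 (SE 0.0482, edgeR adjusted p = 4.79e-23). Pla2g12a fell by 1.08 (SE 0.0684, edgeR adjusted p = 1.21e-20). Pla2g7, a secreted hydrolase of platelet-activating factor, rose by 0.55 (SE 0.0502, edgeR adjusted p = 1.55e-14).

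Of the genes for membrane repair and caveolae, 7 of 15 tested rose and 4 fell. Cavin2, a coat protein of caveolae, went from 154 ± 1.96 to 455 ± 12.5 CPM (SD, n = 3 each), a log2 fold change of 1.57 (SE 0.0411, edgeR adjusted p = 2.59e-38). Ehd2, which sits at the caveolar neck, rose by 1.09 (SE 0.0541, edgeR adjusted p = 3.04e-25). Ahnak, the scaffold bound by Anxa2 and S100a10, fell by 0.51 (SE 0.0340, edgeR adjusted p = 9.24e-20), from 987 ± 38.5 to 693 ± 10.8 CPM (SD, n = 3 each).

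The penta-EF-hand proteins are calcium binders that include sorcin and ALG-2, partners of Anxa7 and Anxa11, and the calpains. Of 6 tested, Pef1 rose by 0.73 (SE 0.106, edgeR adjusted p = 2.78e-08) and 2 fell. Pdcd6, which encodes ALG-2, was at 107 ± 4.67 and 102 ± 6.13 CPM (SD, n = 3 each; -0.06, edgeR adjusted p = 0.360). Sri, which encodes sorcin, was at 238 ± 4.33 and 228 ± 5.63 CPM (-0.07, edgeR adjusted p = 0.168). The 2 that fell encode calpain subunits. Capn2 (-0.20, edgeR adjusted p = 5.26e-06) lost its call after upper-quartile scaling (-0.05) and when chromosome medians were removed (-0.01). Capns1 (-0.09, edgeR adjusted p = 0.0342) lost it without wild-type replicate 2 (-0.08), sg1 or sg2 (both -0.09) and under the stricter filter, and turned to 0.07 after upper-quartile scaling.

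ESCRT genes, whose products seal membranes together with ALG-2 and annexins, were tested next: 9 of 15 fell and 1 rose, where 33.2% of all tested genes were called lower and 33.1% higher. The median of the 15 was -0.29. Ist1 fell from 120 ± 3.49 to 51.9 ± 4.12 CPM (SD, n = 3 each), by 1.21 (SE 0.0636, edgeR adjusted p = 3.74e-24). Tsg101 fell by 0.71 (SE 0.0486, edgeR adjusted p = 3.45e-19) and the ATPase gene Vps4b by 0.62 (SE 0.0519, edgeR adjusted p = 6.42e-16). Chmp6 rose by 0.32 (SE 0.107, edgeR adjusted p = 8.16e-03). Ist1 and 2 others that fell, Chmp1a (-0.58) and Vps4a (-0.52), lie on chromosome 8, where the median of tested genes was -0.36. Chmp1b, at -0.41, lies on chromosome 18, where the median was -0.32. With chromosome medians removed, Ist1 was at -0.85 (edgeR adjusted p = 1.14e-17). The number of ESCRT genes that fell was not taken again under that or another setting.

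Annexins bind phosphatidylserine, which scramblases expose and some flippases retrieve. A list of genes that scramble or flip membrane lipids changed in both directions, with 5 of 11 tested higher and 4 lower. Whether each of them acts on phosphatidylserine was not examined. Xkr8, a scramblase that acts in apoptosis, rose from 2.09 to 6.99 CPM (log2 fold change 1.73, SE 0.281, edgeR adjusted p = 3.28e-07). The flippase genes Atp8b2 and Atp11b, which need not move the same lipid, were at 0.40 (edgeR adjusted p = 3.20e-08) and -0.30 (edgeR adjusted p = 2.50e-06).

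Of the genes for proteins that recognise phosphatidylserine, 3 of 5 tested rose and 1 fell. Mfge8, a bridging protein of engulfment, went from 152 ± 5.17 to 250 ± 6.71 CPM (SD, n = 3 each; 0.72, SE 0.0447, edgeR adjusted p = 6.19e-21). The receptor Axl fell by 0.38 (SE 0.0328, edgeR adjusted p = 1.92e-15), from 958 ± 12.7 to 735 ± 10.0 CPM, and its relative Mertk rose by 1.24 at a low level (SE 0.267, edgeR adjusted p = 5.72e-05). Of the copines, another family that binds lipid through calcium, 2 of 3 tested rose, and Cpne8 went from 3.68 to 19.2 CPM (2.38, SE 0.176, edgeR adjusted p = 5.70e-18). Cpne2 was at -0.03 (edgeR adjusted p = 0.772).

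By the likeness of their pattern over the 6 libraries, the genes closest to Anxa2 were Mef2a, Zfp263 and Ckap5, with Pearson r of log2(CPM + 0.5) of 0.9954, 0.9949 and 0.9939 among 12028 genes. Those closest to Anxa8 were Il1rl1, Klhl24 and Mettl7a1, at 0.9995, 0.9994 and 0.9993. More than 0.99 was reached by 8 genes for Anxa2 and 383 for Anxa8. All 6 libraries are shared by every pair of genes, so these values describe the pattern and carry no p.

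Markers of the line's own tissue and of other cell types were tested in the same fit. Their counts too stand beside 33.1% of all tested genes called higher and 33.2% called lower. Of 10 epithelial markers listed, 5 had a row in the counts used here. They summed to 54.2 to 57.2 CPM in wild-type and 162 to 175 CPM in knock-out libraries. Of 4 tested, 3 rose: Krt18 (1.51, edgeR adjusted p = 2.37e-27), Krt20 (1.79, edgeR adjusted p = 5.81e-23) and Krt8 (4 and 78 summed counts). Lgals4 had 41 and 41 summed counts and Vil1 10 and 7. Epcam and Cdh1, the defining epithelial markers, have no row in the counts used here and were not tested. The same holds for Krt19, Cdx1 and Cdx2. The immune markers summed to 4.53 to 6.93 and 13.5 to 15.8 CPM, and 1 of 2 tested, Lyz2, rose, from 0.553 to 8.80 CPM. Cd68, the larger part of the wild-type sum, was at 0.06 (edgeR adjusted p = 0.838), and Ptprc, which encodes the pan-leukocyte antigen CD45, had 3 and 9 counts. The fibroblast markers summed to 133 to 146 and 322 to 351 CPM, and 3 of 4 tested rose, Col1a1 the most in CPM (1.58, edgeR adjusted p = 6.01e-31), while Pdgfrb was at 0.10 (edgeR adjusted p = 0.372). The endothelial markers summed to 0.471 to 1.94 and 1.96 to 3.11 CPM. Of those, Pecam1 was the only one tested and rose, while Kdr had 6 and 6 counts and Tek 8 and 5. Krt8, Lyz2 and Pecam1 had wild-type means of 0.132, 0.553 and 0.540 CPM and passed the filter only through the knock-out libraries. Only a rise could be called for them, so nothing is read from their calls. In bulk libraries a change in the number of cells of a type and a change in RNA per cell cannot be told apart. The part of these markers in the annexin values was not tested.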

How the data were processed

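Bulk RNA-seq of 3 wild-type and 3 Mll3 knock-out libraries of CT26 cells was used. The authors deposited whole-number counts of reads for 17718 Ensembl genes, each above 0 in at least 3 libraries. Per the labels' protocols, libraries were strand-specific and made from polyA RNA. The submitters' processing notes name STAR, HTSeq, fastp and other tools and the build mm10, without roles. Which annotation release was counted, and whether by strand, is not given in the sources used here. The CUT&Tag and single-cell samples are not analysed here.

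Genes were filtered with filterByExpr (minimum count 10, minimum total 15; 13013 kept), scaled by TMM and fitted with edgeR 4.0.16 (limma 3.58.1, R 4.3.3). Robust quasi-likelihood F tests were adjusted by Benjamini-Hochberg across the 13013 genes, with 0.05 as threshold. The median biological coefficient of variation was 5.03%. The script was tested on simulated counts. Symbols matched 17650 identifiers, and RefSeq on GRCm38.p6, matched by symbol, gave promoter windows and the positions of 11921 tested genes. Distances run between gene midpoints. All pairs of libraries within a group differed by more than counting error.

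The annexins and the partner and marker lists were chosen with earlier results of these data known. The partner list of the plasminogen system leaves out 1 gene that is not reported here. Genes named are all annexins of the table, Kmt2c, S100a10, S100a11, Plaur, Nr3c1, Pdcd6, the 3 genes of each list with the smallest p and the 3 most like Anxa2 and Anxa8. Neighbours and any other gene were chosen after values were seen. Alternatives were scaling by RLE, by upper quartile or by library size, other filters, DESeq2 1.42.0, removing chromosome medians and leaving out each library.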

Additional observations from a re-analysis of the deposited data

How the results depend on the processing

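The annexins' median of 0.54 (log2) moved to 0.70 after upper-quartile scaling, 0.66 by library size alone and 0.46 when chromosome medians were removed, and ran from 0.52 to 0.57 otherwise. Of all genes called, 49.9% were higher under TMM, 60.5% by library size and 63.7% under the upper quartile. Single genes followed under each setting were the tested annexins, Kmt2c, Nr3c1, Pdcd6 and the 3 of each list with the smallest p. Other named genes, such as Sri and Zfand5, were not followed. Among those followed, directions turned after upper-quartile scaling for Anxa2 (0.034), Pdcd6 (0.097), Capns1 (0.065) and Cpne2 (0.12). They turned by library size for Pdcd6 (0.061), Capns1 (0.029) and Cpne2 (0.088), and when chromosome medians were removed for Pdcd6 (0.055) and Cpne2 (0.32, edgeR adjusted p = 0.00266). With 1 library left out, Anxa9 ran from -0.27 to 0.0032, Cd68 from -0.020 to 0.21, Plgrkt from -0.062 to 0.12 and Cpne2 from -0.083 to 0.0023. The cause was not tested. No paired analysis was possible because the knock-out columns carry no replicate number of the labels. Depth limits Anxa6 and Anxa10, which were not tested, and groups of 3 libraries limit every SD.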

Other observations

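The annexin levels of the knock-out libraries lay close together. The coefficient of variation over the 3 libraries was below the value that counting alone gives for 8 of the 8 tested annexins in the knock-out, where 36.7% of all tested genes were below it. In the wild type it was below for 1 of 8, Anxa11, where 30.6% of all tested genes were. For Anxa5 the coefficient was 0.0772% in the knock-out, where counting alone gives 1.02%, and for Anxa8 it was 0.493% where counting gives 3.42%. An SD over 3 libraries is itself imprecise, the pattern was noticed in the data, and its cause was not tested.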
